A study of Mus musculus with 24 samples.

Results

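The 9 genes described here encode transcription factors that form and maintain the myeloid lineage: Spi1, Runx1, Maf, Cebpa, Cebpb, Cebpd, Ikzf1, Irf8 and Lyl1. They were chosen by name, as 9 of the 36333 genes listed in the expression table, and all 9 passed the filter of a mean over the libraries of at least 0.5 TPM, a transcript measure that divides reads by gene length and sets every library to the same sum. RNA was sequenced from the injured brain region of 24 male mice, 1 library per mouse, 5 days after controlled cortical impact (CCI), a model of traumatic brain injury (TBI), or after sham surgery. The labels give the strain as C57BL6N, whereas the study's methods name C57BL/6JRj, and the age as 12 to 16 weeks. The labels name no transgene.

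The TBI groups held 5 mice each and were given vehicle, PLX3397, Anakinra or PLX3397+Anakinra, and the Sham group held 4 mice with a skin incision but no craniotomy. PLX3397, an inhibitor of the receptor CSF1R on which microglia depend, was fed in chow (290 mg per kg of food) from 90 min after CCI until 5 dpi. Anakinra, a blocker of the interleukin 1 receptor IL1R1, was injected subcutaneously at 100 mg/kg at 5 min, 24 h, 48 h and 72 h. The animal numbers of the vehicle mice alone end in the letter B, and if that marks a batch it cannot be told apart from vehicle treatment. In the labels the tissue is post TBI cortex, but by the study's methods the dissected block also held striatum, dorsal hippocampus and thalamus. Markers of neurons, astrocytes, oligodendrocytes and endothelium were present in every group, and the 10 microglial markers summed to between 307 and 1722 TPM. Since this was bulk tissue, fewer cells of a type and less RNA per cell cannot be told apart in any result below.

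Microglia and macrophages owe their identity to a small set of factors that bind enhancers together. PU.1, encoded by Spi1, opens chromatin at myeloid genes and is needed for every macrophage lineage, and IRF8 joins it at composite sites and is required for normal microglia. RUNX1 acts earlier, in the emergence of blood cells and yolk sac progenitors, and LYL1, a basic helix-loop-helix factor, acts in the same progenitors. IKAROS, encoded by Ikzf1, is a zinc finger factor of lymphoid and myeloid cells, and c-MAF, encoded by Maf, is a basic leucine zipper factor of differentiated macrophages. C/EBPα, C/EBPβ and C/EBPδ share a DNA-binding domain, yet C/EBPα directs myeloid commitment whereas C/EBPβ and C/EBPδ are induced in inflammation, also in astrocytes.

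Upstream sequences of genes that moved in different ways are shown first, 250 bases before a transcription start in the RefSeq annotation of GRCm38.p6, 5′ to 3′ on the strand of the gene. Windows were at hand for 6 of the 9 genes (9 windows, since Runx1, Ikzf1 and Irf8 had more than 1), and Spi1, Maf and Cebpd had none. Irf8 and Lyl1 are shown as genes that fell with PLX3397, Cebpa as a C/EBP gene that fell, and Cebpb as one that was not called. The windows are chr8:120736108-120736357 for Irf8, chr8:84701207-84701456 for Lyl1, chr7:35119043-35119292 for Cebpa and chr2:167688665-167688914 for Cebpb, all on the plus strand. Capitals mark matches to the motifs searched.
Irf8: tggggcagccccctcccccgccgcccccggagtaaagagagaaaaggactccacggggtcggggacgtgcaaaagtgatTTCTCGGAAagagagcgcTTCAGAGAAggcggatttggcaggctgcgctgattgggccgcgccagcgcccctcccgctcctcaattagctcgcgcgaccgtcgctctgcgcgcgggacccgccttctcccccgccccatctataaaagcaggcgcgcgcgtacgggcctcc
Lyl1: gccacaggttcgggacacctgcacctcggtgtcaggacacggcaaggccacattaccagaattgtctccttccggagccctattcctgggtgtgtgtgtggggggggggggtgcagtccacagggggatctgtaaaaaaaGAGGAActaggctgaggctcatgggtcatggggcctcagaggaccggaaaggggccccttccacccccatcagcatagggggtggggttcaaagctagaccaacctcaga
Cebpa: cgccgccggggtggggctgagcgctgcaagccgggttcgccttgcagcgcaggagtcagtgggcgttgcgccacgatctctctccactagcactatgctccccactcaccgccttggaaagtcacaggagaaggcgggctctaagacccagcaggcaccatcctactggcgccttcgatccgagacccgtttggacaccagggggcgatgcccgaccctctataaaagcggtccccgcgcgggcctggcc
Cebpb: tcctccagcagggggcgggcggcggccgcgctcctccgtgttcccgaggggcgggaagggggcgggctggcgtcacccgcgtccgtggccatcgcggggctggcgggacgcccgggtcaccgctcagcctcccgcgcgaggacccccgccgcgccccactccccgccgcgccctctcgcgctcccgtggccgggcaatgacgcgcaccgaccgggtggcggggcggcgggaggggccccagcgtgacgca
The motifs, searched on both strands, were GAGGAA (PU.1 core), TTGCNNAA (C/EBP), TGTGGT (RUNX), GAAA followed after 2 free bases by GAAA (IRF), GGAA followed after 2 free bases by GAAA (PU.1-IRF composite, which can overlap an IRF match), TTCNNNGAA (STAT, known as GAS) and TGACGTCA (CRE). Irf8 held TTCNNNGAA at 2 places, 171 and 153 bases before its start, and 7.02% of all 32851 upstream windows of this length hold that motif. GAGGAA was found in Lyl1, 110 bases before the start used for its window, and in 1 of the Runx1 windows, and 23.3% of all windows hold it. The Lyl1 gene as annotated begins at 84701423, so the last bases of its window, up to 84701456, lie inside the gene. The other motifs were not found in any of the 9 windows, and they occur in 9.56% (C/EBP), 14% (RUNX), 2.98% (IRF), 2.3% (composite) and 1.55% (CRE) of all windows. These are matches of letters and were not measured as binding. The upstream GC content ranged from 60% in Lyl1 to 81.6% in Cebpb among the 4 windows shown.

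All 9 transcription factors were higher after TBI. In vehicle-treated mice compared with Sham mice, 9 of 9 were called higher at an adjusted p below 0.05 in limma, where 26.6% of the 17267 genes tested were called higher. The median log2 fold change of the 9 genes, on the log2(TPM + 1) scale, was 1.78, and that of all genes tested was -0.01. Irf8 and Spi1 rose most on this scale, and Maf and Cebpb least.

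The PU.1 gene Spi1 was measured at 6.37, 4.10, 5.43 and 5.77 TPM in the Sham mice and at 32.6, 24.9, 37.6, 36.9 and 33.6 TPM in the vehicle mice. Every vehicle mouse was above every Sham mouse, and the means were 33.1 ± 5.07 (SD, n = 5) and 5.42 ± 0.96 TPM (SD, n = 4). The log2 fold change was 2.41 (SE 0.14, limma adjusted p = 1.78e-13). Its partner Irf8 behaved alike in size, with 4.88, 5.41, 3.94 and 5.09 TPM in Sham and 30.5, 25.8, 37.3, 34.1 and 32.1 TPM in vehicle mice. These groups did not overlap either, and the log2 fold change of Irf8 was 2.50 (SE 0.13, limma adjusted p = 8.57e-14). How many of all genes tested have groups that do not overlap was not computed, here or in any comparison below. Overlap is therefore given as a description of each gene.

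Among the progenitor factors, Runx1 was the lowest of the 9 in TPM, which is scaled by gene length. Its Sham values of 0.52, 0.72, 0.46 and 0.61 TPM stood against 4.52, 2.70, 4.84, 4.58 and 4.20 TPM in vehicle mice. The ratio of the mean TPM was 7.22, whereas the log2 fold change was 1.70 (SE 0.14, limma adjusted p = 1.39e-10), because the added 1 TPM understates changes of low genes. Lyl1 lay between 2.86 and 4.41 TPM in Sham and between 11.5 and 18.5 TPM after vehicle, which gave a log2 fold change of 1.78 (SE 0.11). Ikzf1 lay between 2.15 and 2.53 TPM in Sham and between 6.43 and 10.4 TPM after vehicle, which gave a log2 fold change of 1.58 (SE 0.12). Neither gene's groups overlapped.

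Of the C/EBP genes, Cebpa was the most abundant of the 9 in TPM after injury. Its mean was 12.9 ± 1.17 TPM (SD, n = 4) in Sham mice. After injury and vehicle it reached 60.9 ± 8.57 TPM (SD, n = 5), and the log2 fold change was 2.15 (SE 0.10, limma adjusted p = 9.39e-15). Cebpd was at 6.29, 5.34, 5.71 and 4.97 TPM in Sham and at 21.4, 20.3, 29.7, 26.2 and 26.6 TPM after vehicle, which gave a log2 fold change of 1.97 (SE 0.11, limma adjusted p = 1.86e-13). Cebpb was already at 20.9, 15.5, 20.8 and 14.7 TPM in Sham and reached 30.7, 22.4, 33.6, 34.8 and 28.0 TPM in vehicle mice. The lowest vehicle mouse was only just above the highest Sham mouse, and the log2 fold change was 0.70 (SE 0.13, limma adjusted p = 7.22e-05). Maf, the factor of differentiated macrophages, went from 16.3, 12.4, 13.9 and 12.7 TPM in Sham to 22.04, 20.2, 24.0, 23.8 and 22.3 TPM in vehicle mice. Its log2 fold change was 0.67 (SE 0.08, limma adjusted p = 2.32e-07), and its groups did not overlap.

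**Figure D1:**
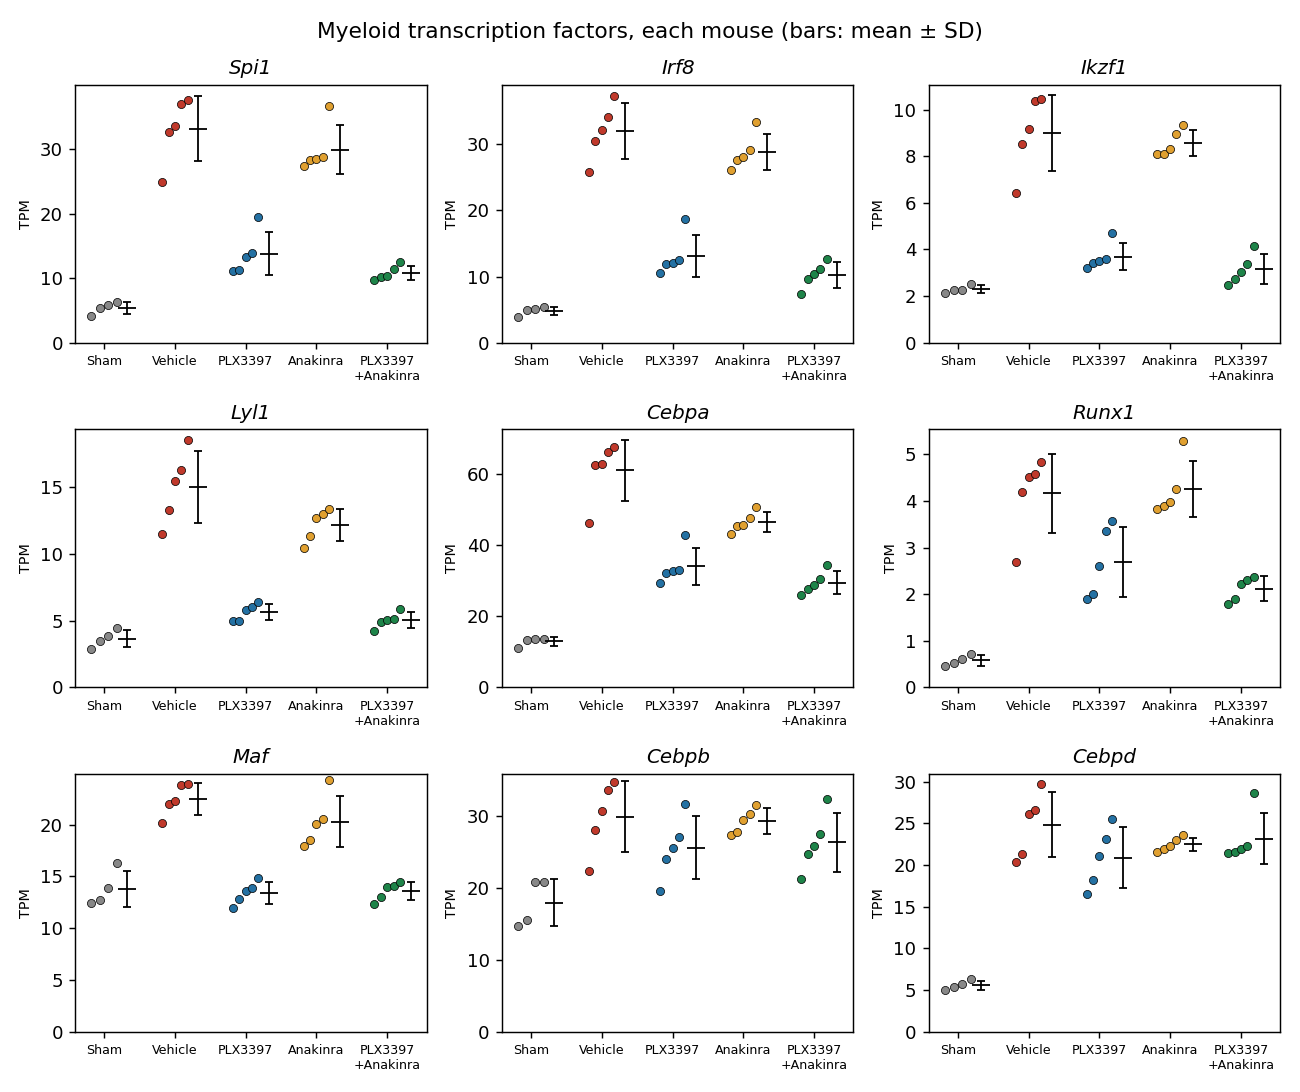
TPM of each of the 9 genes (vertical axes, from 0) in every mouse of the 5 groups, with 1 point per mouse, a horizontal dash at the mean and whiskers of 1 SD. Spi1, Irf8, Ikzf1 and Lyl1 lie low in both groups with PLX3397, Maf lies at Sham level there, and Cebpb and Cebpd overlap among all 4 TBI groups.

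With PLX3397, 7 of the 9 genes were called lower than with vehicle, and the 2 that were not called were Cebpb and Cebpd. Of all genes tested, 6.66% were called lower in this comparison, and the median log2 fold change was -0.82 over the 9 genes and 0.01 over all genes tested. Spi1, Irf8, Ikzf1 and Lyl1 fell by more than 1 on the log2 scale, and Runx1 fell least among those called.

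With PLX3397, Spi1 was at 11.2, 19.4, 13.9, 11.3 and 13.2 TPM, below each of the vehicle mice. It fell by 1.22 on the log2 scale (SE 0.13, limma adjusted p = 2.40e-07). Irf8 was at 10.6, 18.7, 12.1, 11.8 and 12.5 TPM and fell by 1.24 (SE 0.13, limma adjusted p = 1.81e-07). In both genes 1 mouse, J02, stood above the other PLX3397 mice and still below the vehicle mice. Ikzf1 was at 3.21, 4.70, 3.51, 3.43 and 3.58 TPM and fell by 1.08 (SE 0.11, limma adjusted p = 1.64e-07). Lyl1 was at 6.36, 6.001, 5.00, 4.98 and 5.76 TPM and fell by 1.26 (SE 0.11, limma adjusted p = 1.44e-08), the largest change of the 9 genes in this comparison. No PLX3397 mouse reached the vehicle range in these genes.

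Cebpa was at 29.3, 42.9, 32.9, 32.6 and 32.1 TPM with PLX3397 and fell by 0.82 on the log2 scale (SE 0.10, limma adjusted p = 1.14e-06). Maf was at 14.8, 13.6, 11.9, 12.8 and 13.8 TPM and fell by 0.70 (SE 0.08, limma adjusted p = 5.10e-07). Runx1 was at 1.91, 3.57, 2.61, 2.01 and 3.36 TPM, and its range overlapped that of the vehicle mice, whose lowest value was 2.70 TPM. It fell by 0.49 (SE 0.13, limma adjusted p = 0.0138). The call of Runx1 was lost without PLX3397 mouse J01 (limma adjusted p = 0.0543) and when only these 2 groups entered the fit (limma adjusted p = 0.093). It was also lost in a fit paired by animal number (log2 fold change -0.69, limma adjusted p = 0.0849). That fit held only the mice of the 3 shared numbers, which do not pair the mice, and called 703 genes against 1707 without it.

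Cebpb was at 24.0, 31.7, 27.1, 19.6 and 25.6 TPM with PLX3397, across much of the vehicle range of 22.4 to 34.8 TPM. Its log2 fold change was -0.22 (95% confidence interval -0.47 to 0.04, limma adjusted p = 0.321). Cebpd was at 16.6, 25.5, 21.1, 18.2 and 23.1 TPM, and its log2 fold change was -0.24 (95% confidence interval -0.46 to -0.03, limma adjusted p = 0.158), with an unadjusted p of 0.0293. These intervals leave room for falls of up to about 0.47 on the log2 scale in either gene, and neither reaches the falls of Spi1, Irf8, Ikzf1 or Lyl1.

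Compared with Sham mice, 8 of 9 genes were still called higher with PLX3397 (22.7% of all genes tested were), and Maf was the exception. Under PLX3397 Maf averaged 13.4 ± 1.08 TPM (SD, n = 5), close to the Sham mean of 13.8 ± 1.75 TPM (SD, n = 4). The log2 fold change of Maf here was -0.04 (95% confidence interval -0.21 to 0.13, limma adjusted p = 0.748). Spi1 remained 2.55 times, Irf8 2.72 times and Cebpa 2.63 times as high in mean TPM as in Sham. Lyl1 and Ikzf1 remained 1.54 and 1.6 times as high. As a share of the rise in mean TPM from Sham to vehicle, the part still present with PLX3397 was 17.4% for Lyl1, 20.7% for Ikzf1, 30.3% for Spi1, 30.6% for Irf8, 43.9% for Cebpa and 58.8% for Runx1. For Cebpb and Cebpd it was 64.1% and 79.5%. The groups that define these shares are the same vehicle and Sham mice throughout.

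With Anakinra alone, no member passed the threshold. Compared with vehicle, 0 of 9 were called in limma, where 0.116% of all genes tested were called in either direction. An unadjusted p under 0.05 was seen in 2 of 9, Cebpa and Lyl1. The share of all genes with an unadjusted p under 0.05 was not computed, so that count has no background beside it. Cebpa was at 50.6, 45.2, 43.0, 47.6 and 45.7 TPM with Anakinra, and 4 of the 5 vehicle mice were above all of these. Its log2 fold change was -0.37 (95% confidence interval -0.57 to -0.18, limma adjusted p = 0.0986). Without vehicle mouse J17B, whose Cebpa value of 46.1 TPM was the lowest of its group, Cebpa was called with a log2 fold change of -0.47 (limma adjusted p = 0.0207). Lyl1 was at 13.3, 12.7, 11.3, 13.02 and 10.4 TPM with Anakinra, a log2 fold change of -0.27 (limma adjusted p = 0.297). The log2 fold changes of the other 7 genes lay between -0.14 and 0.04, that of Spi1 at -0.14 (95% confidence interval -0.40 to 0.13) and that of Runx1 at 0.04 (95% confidence interval -0.23 to 0.30). Compared with Sham, all 9 genes were called higher with Anakinra, as 25.1% of all genes tested were.

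With PLX3397+Anakinra, 7 of the 9 genes were called lower than with vehicle, against 9.6% of all genes tested. These were Spi1, Irf8, Ikzf1, Lyl1, Cebpa, Runx1 and Maf. The median log2 fold change of the 9 genes was -1.02, and that of all genes tested was 0.01. This comparison uses the same vehicle mice as that of PLX3397 alone.

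Spi1 was at 12.5, 10.3, 10.2, 11.4 and 9.75 TPM with the combination and fell by 1.52 on the log2 scale compared with vehicle (SE 0.13, limma adjusted p = 2.73e-09). Irf8 was at 11.1, 12.6, 10.4, 9.68 and 7.43 TPM and fell by 1.56 (SE 0.13, limma adjusted p = 1.69e-09). Lyl1 was at 4.91, 5.86, 5.02, 5.12 and 4.22 TPM and fell by 1.40 (SE 0.11, limma adjusted p = 8.21e-10). In all 3 genes the highest mouse with the combination was below the lowest vehicle mouse, and the share of all genes tested so separated was not computed.

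Ikzf1 was at 3.38, 3.04, 2.73, 4.14 and 2.47 TPM and fell by 1.26 (SE 0.11, limma adjusted p = 5.15e-09). Runx1 was at 2.38, 2.22, 2.31, 1.89 and 1.79 TPM and fell by 0.71 (SE 0.13, limma adjusted p = 0.000252), here without overlap with the vehicle mice. Cebpa, at 25.9 to 34.4 TPM, fell by 1.02 (SE 0.10), and Maf, at 12.4 to 14.5 TPM, fell by 0.69 (SE 0.08). Neither of these ranges touched that of the vehicle mice.

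Cebpb and Cebpd were not called with the combination either. Cebpb was at 27.4, 25.8, 32.4, 21.2 and 24.7 TPM, and its log2 fold change from vehicle was -0.17 (95% confidence interval -0.43 to 0.08, limma adjusted p = 0.38). Cebpd was at 21.9, 21.5, 28.6, 21.6 and 22.3 TPM, and its log2 fold change was -0.09 (95% confidence interval -0.31 to 0.12, limma adjusted p = 0.604). Mouse J09 was the highest of its group for both genes. Compared with Sham, Cebpd was still 4.15 times as high in mean TPM and Cebpb 1.47 times.

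**Figure D2:**
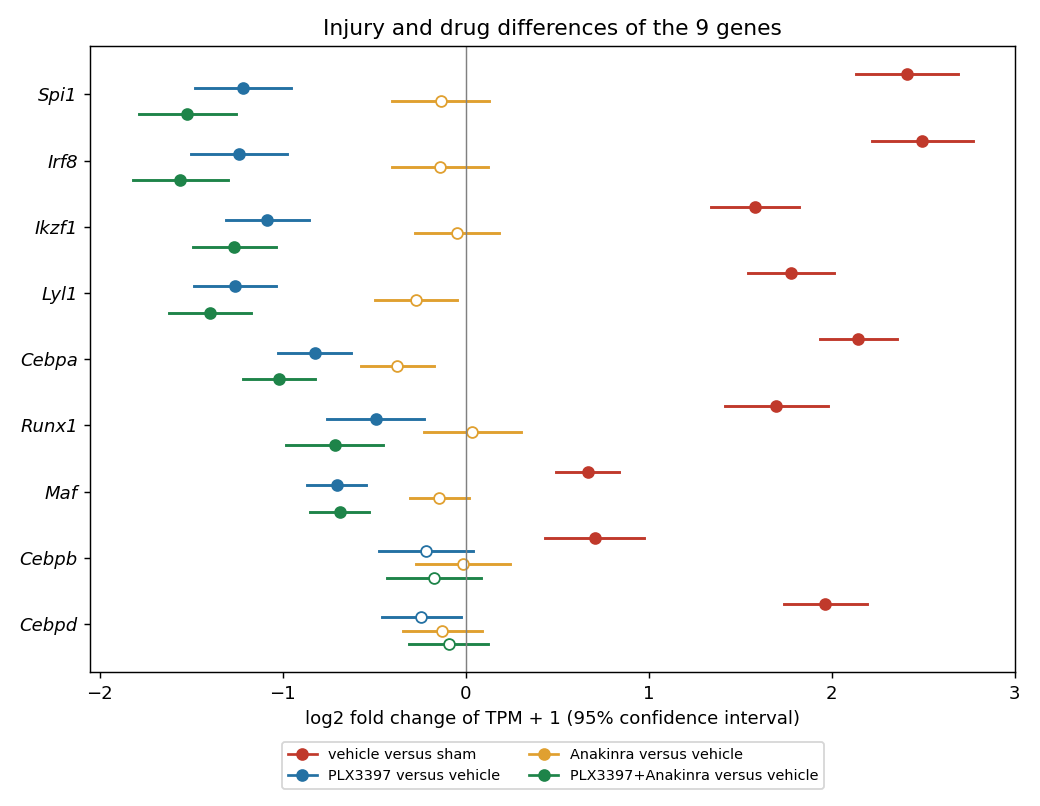
Log2 fold changes of TPM + 1 (horizontal axis) for the 9 genes, with 95% confidence intervals from limma, in vehicle versus Sham and in each drug group versus vehicle. Filled points passed an adjusted p below 0.05, as all 9 did for injury and 7 did for PLX3397 and for the combination, and open points, among them all 9 for Anakinra, did not.

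The combination was then set against each drug alone. Compared with PLX3397, 0 of 9 genes were called in limma (0.151% of all genes tested were called in either direction). An unadjusted p under 0.05 was seen in 2 of 9, Spi1 and Irf8, and the share of all genes below that value was not computed. The log2 fold change of Spi1 was -0.30 (95% confidence interval -0.57 to -0.04, limma adjusted p = 0.627), and that of Irf8 was -0.32 (95% confidence interval -0.58 to -0.06, limma adjusted p = 0.563). Compared with Anakinra, 7 of 9 genes were called lower with the combination (8.1% of all genes tested were), again without Cebpb and Cebpd. Compared with Sham, 8 of 9 were called higher (20.7% of all genes tested were), again without Maf, and Ikzf1 was the weakest of these with a log2 fold change of 0.32 (limma adjusted p = 0.0341). That call of Ikzf1 was lost when any 1 of combination mice J03 and J10 or Sham mice J07, J15 and J16 was left out, with adjusted p up to 0.112 in limma, and that of Lyl1 was lost without Sham mouse J15 (limma adjusted p = 0.0577).

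Whether Anakinra acted differently with and without PLX3397 was tested as an interaction. In limma, 0 of 9 genes were called, as were 0% of all genes tested. An unadjusted p under 0.05 was seen in 0 of 9, and the share of all genes below that value was not computed. The interaction was largest for Cebpd at 0.28 on the log2 scale (95% confidence interval -0.03 to 0.58, limma adjusted p = 0.635) and for Runx1 at -0.26 (95% confidence interval -0.63 to 0.12, limma adjusted p = 0.713). Intervals of this width do not show that the effects were additive. Over the 5 groups together, all 9 genes differed, as did 51.9% of all genes tested.

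The order of the group means was the same for Spi1, Cebpa, Ikzf1, Irf8 and Lyl1: Sham lowest, then the combination, PLX3397, Anakinra and vehicle. In these genes the ranges of the combination and PLX3397 overlapped, as did those of Anakinra and vehicle, whereas those of PLX3397 and Anakinra did not. For Runx1, the ranges of PLX3397 and vehicle also overlapped, and Anakinra had the highest mean. For Maf, the lowest 3 means were those of PLX3397, the combination and Sham, which overlapped. For Cebpb, every pair of neighbours in the order overlapped. For Cebpd, Sham stood apart at 5.58 ± 0.56 TPM (SD, n = 4) and the 4 TBI groups overlapped, between means of 20.9 and 24.9 TPM.

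The members were next set against the myeloid signal of the same library. For this, the mean log2(TPM + 1) of 12 genes of myeloid cells in general, among them Tyrobp, Aif1, Itgam and C1qa, was subtracted from each gene. Of the 12, 11 rose with injury and Coro1a, which neurons express too, fell by 0.15 on the log2 scale. Itgam is also among the PU.1, C/EBP and IRF8 targets described further on. This reference rose by 2.72 on the log2 scale from Sham to vehicle mice and fell by 1.08 with PLX3397 and by 1.41 with the combination compared with vehicle (exact two-sided permutation p = 0.007937 in each case, the smallest these groups allow).

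Spi1, Irf8, Ikzf1 and Lyl1 stayed within 0.18 of the reference on the log2 scale under PLX3397. Their differences from vehicle after the subtraction were -0.14 (SE 0.11) for Spi1, -0.16 (SE 0.10) for Irf8, -0.00 (SE 0.11) for Ikzf1 and -0.18 (SE 0.12) for Lyl1, and none of the 4 was called by limma with adjustment over all genes tested. With the combination the differences were -0.11, -0.14, 0.15 and 0.02 in the same order, and again none was called. By the exact permutation test with adjustment over the 36 tests made, Irf8 passed with PLX3397 (adjusted p = 0.0272) and Spi1 with the combination (adjusted p = 0.0497), both lower. Neither passed with the 10 microglial markers as reference, where Irf8 turned to 0.04 (exact test, adjusted p = 0.676) and Spi1 had an adjusted p of 0.127, and Spi1 did not pass after median-ratio rescaling either (exact test, adjusted p = 0.0621). Irf8 did pass after that rescaling (exact test, adjusted p = 0.0272). With a pseudocount of 0.1 both passed (exact test, adjusted p = 0.0317 for each). A gene that does not respond would be higher after this subtraction, and 98.4% of all genes tested were called higher with PLX3397 and 98.5% with the combination.

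The other 5 genes were higher relative to the reference, as were nearly all genes. For Cebpb the difference between PLX3397 and vehicle was 0.86 (SE 0.13), and with the combination it was 1.24 (SE 0.13). For Cebpd it was 0.84 (SE 0.11) and 1.32 (SE 0.11). Runx1 was 0.59 (SE 0.12) and 0.70 (SE 0.12) higher, Maf 0.38 (SE 0.12) and 0.73 (SE 0.12), and Cebpa 0.26 (SE 0.10) and 0.40 (SE 0.10). The median over all genes tested was 1.09 with PLX3397 and 1.43 with the combination, so that Cebpa lay nearer to the reference than to the median gene.

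From Sham to vehicle mice, all 9 genes fell relative to this reference, as did 98.8% of all genes tested, by between 0.23 (Irf8) and 2.06 (Maf) on the log2 scale. This result turned on the reference and on the pseudocount. With 0.1 TPM added in place of 1, Runx1 moved from -1.03 to -0.15, Spi1 to -0.20 and Irf8 to -0.10, and these 3 no longer passed the exact test (adjusted p = 0.41, 0.132 and 0.41), while the other 6 did. With the 10 microglial markers in its place, Irf8 was 0.87 and Spi1 0.78 higher in vehicle than in Sham mice, Maf was 0.96 lower (difference -0.96) and Cebpb 0.92 lower (difference -0.92). The microglial markers rose less with injury than the 12 genes did, with means of 4.42 in Sham and 6.05 in vehicle mice on the log2 scale.

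**Figure D3:**
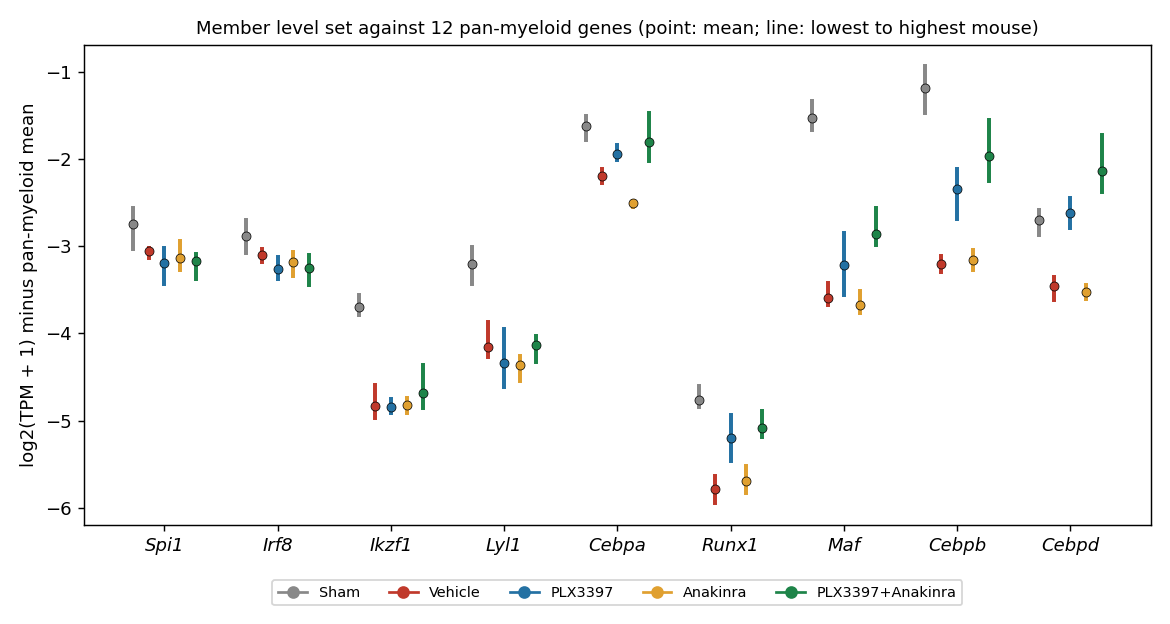
Log2(TPM + 1) of each gene minus the mean of the 12 pan-myeloid genes in the same library (vertical axis), by group, with a point at the mean and a line from the lowest to the highest mouse. The TBI groups of Spi1, Irf8, Ikzf1 and Lyl1 lie side by side, and both PLX3397 groups of Cebpb and Cebpd lie above vehicle and Anakinra.

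The members also varied together between mice of 1 group. Over the 20 TBI mice, with the group means removed, Pearson's r between pairs ranged from 0.13 to 0.85 with a median of 0.62 (36 pairs), as a description, since all genes of a mouse share its library and dissection. Spi1 and Runx1 had the highest r at 0.85, and Maf and Cebpd the lowest at 0.13. Maf had an r of at most 0.46 with every other member. Over all 24 libraries, which include the group differences, the median was 0.86. Vehicle mouse J17B was below its group mean in 9 of 9 members, and PLX3397 mouse J02 and Anakinra mouse J05 were above theirs in all 9, as were vehicle mice J18B and J19B, while PLX3397 mouse J19 was below in all 9. Mouse J17B also had the lowest pan-myeloid mean of its group, 7.83 on the log2 scale against 8.10 to 8.31, and J02 the highest, 7.42 against 6.83 to 7.06.

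**Figure D4:**
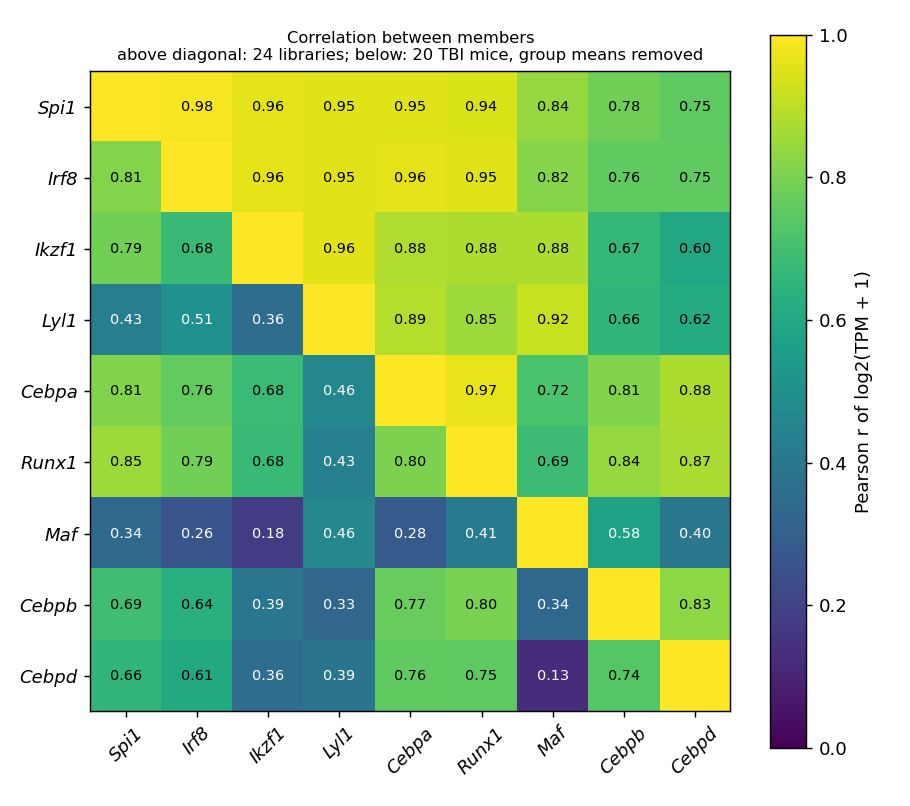
Pearson's r of log2(TPM + 1) between the 9 genes, above the diagonal over 24 libraries and below it over the 20 TBI mice with group means removed. Below the diagonal, Maf has values from 0.13 to 0.46 with the other 8 genes, and the pair of Spi1 and Runx1 has the highest at 0.85.

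Over the 24 libraries, the genes most like each member were also compared, among the 15775 genes tested with a mean of at least 1 TPM. For Spi1 they were Laptm5 (r = 0.99), Cd37 and Irf5, and for Irf8 Cd37 (r = 0.99), Laptm5 and Unc93b1. For Ikzf1 they were Vsir, Wdfy4 and Slco2b1, for Lyl1 Rasal3, Slco2b1 and Cx3cr1, and for Cebpa Ctsa, Trem2 and Fcer1g. For Runx1 they were Ctsz, Tapbp and Tcirg1, and for Maf Arhgap4 (r = 0.95), Tnfrsf11a and Abi3. Cebpb was most like Slc12a7 (r = 0.91), Lfng and Sh3pxd2b, and Cebpd most like Bcl3 (r = 0.98), Fgfrl1 and Metrn. Spi1 and Irf8 shared Laptm5 and Cd37, and Ikzf1 and Lyl1 shared Slco2b1. No other pair of these lists, those of Cebpb and Cebpd included, shared a gene.

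Other genes of the same transcription factor families gave a mixed picture. Of 32 relatives, 25 passed the filter, of which 18 were called higher and 3 lower in vehicle than in Sham mice, 8 were called lower with PLX3397 and 12 lower and 1 higher with the combination than with vehicle. Their median log2 fold changes were 0.40, -0.15 and -0.16. Of all genes tested, 26.6% were called higher and 27.7% lower with injury, 6.66% lower with PLX3397, and 9.6% lower and 7.88% higher with the combination. Irf5, which drives inflammatory macrophage genes, rose by 2.00 on the log2 scale with injury and fell by 0.92 with PLX3397 and by 1.25 with the combination. Irf7, an interferon response factor, rose by 2.44 with injury, was not called with PLX3397 (log2 fold change -0.34, limma adjusted p = 0.179) and fell by 0.73 with the combination.

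Tal1, the closest relative of Lyl1, rose by 0.73 with injury and fell by 0.51 with PLX3397. Runx2, better known from bone, fell by 0.43 with injury, as Ets2 did by 0.28, and Runx2 was 0.30 higher with the combination than with vehicle. Cebpg, which lacks an activation domain, rose by 0.40 and fell by 0.24 with PLX3397, and Ikzf2 rose by 0.35 and was not called with either drug diet. Runx3 and Ikzf3 averaged 0.61 and 0.10 TPM in vehicle mice and did not pass the filter.

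Among 26 other regulators of microglia, macrophages and their progenitors, 25 passed the filter. With injury 14 were called higher and 4 lower, with PLX3397 3 were called lower, among them Sall1 and Lmo2, and with the combination 7 were lower and 1 higher. The 4 of 25 called lower with injury lie below the 27.7% of all genes tested, and the 3 of 25 called lower with PLX3397 stand beside 6.66%. Of all genes tested, 26.6% were called higher with injury, and 9.6% lower and 7.88% higher with the combination. Atf3, a stress-induced factor, rose most with injury (log2 fold change 3.84), and the falls were largest for Nr4a1 (-0.79) and Mef2c (-0.69). With the combination, Batf fell by 0.88 and Bhlhe40 was 0.17 higher.

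Genes known to be bound or driven by PU.1, C/EBP factors or IRF8 mostly rose with injury and fell with PLX3397. Of 21 listed, 20 passed the filter, of which 18 were called higher and 1 lower with injury (26.6% and 27.7% of all genes tested), and their median log2 fold change was 2.48. With PLX3397, 16 were lower and 1 higher than with vehicle (6.66% and 3.23% of all genes tested), with a median of -1.01. With the combination 17 were lower and 1 higher (9.6% and 7.88% of all genes tested), with a median of -1.40. Lyz2, the macrophage lysozyme, rose by 6.82 on the log2 scale with injury and fell by 2.42 with the combination, and Arg1, which marks alternative activation, rose by 5.12 and fell by 3.01. Ptgs2, which encodes cyclooxygenase 2 and is expressed in neurons too, was the 1 called the other way in both: it fell by 0.53 with injury and was 0.43 higher with the combination. Some targets were not called, Il1b with injury (limma adjusted p = 0.0767) and 3 of the 20 with PLX3397.

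Markers of other cells moved with some of these results. The summed level of the 10 microglial markers was 307 to 335 TPM in Sham, 1331 to 1722 in vehicle, 589 to 896 with PLX3397, 1456 to 1653 with Anakinra and 527 to 719 with the combination, and 10 of 10 were called higher with injury and lower with PLX3397 and with the combination. The 7 markers of border macrophages summed to 75.7 to 157 TPM in vehicle, 34.5 to 69.7 with PLX3397 and 13.6 to 20.6 with the combination. The 7 monocyte markers, 5 of which passed the filter, summed to 15.9 to 22.3 TPM in vehicle, 15.5 to 25.0 with PLX3397 and 12.5 to 18.1 with the combination. Vcan made up 12.4 TPM of the vehicle mean of 20.5 and was not called with either drug diet, whereas Ccr2, the chemokine receptor of inflammatory monocytes, averaged 2.23 TPM with vehicle and 0.80 TPM with PLX3397 and was called lower (limma adjusted p = 0.000132). Of the 5 tested, 5 were called higher with injury, 1 lower with PLX3397 and 3 lower with the combination. Both B cell markers that passed the filter, Cd79b and Cd22, were called higher with injury and lower with PLX3397 and with the combination, and the 6 listed summed to at most 9.23 TPM in any mouse. Of the 7 neutrophil markers 3 passed the filter, and they summed to at most 50.2 TPM in any mouse.

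The 6 astrocyte markers summed to 1517 to 1748 TPM in Sham and to 3404 to 4505 TPM over all TBI mice, and 1 of 6 was called, higher, with PLX3397 and with the combination compared with vehicle. Endothelial markers were called higher with injury in 5 of 6 and in 0 of 6 with PLX3397 or the combination, and oligodendrocyte markers higher with injury in 4 of 5 and with PLX3397 in 1 of 5. Neuron markers were called lower with injury in 6 of 6, and higher in 1 of 6 with PLX3397 and in 4 of 6 with the combination. Beside all these marker counts stand the shares of all genes tested. With injury 26.6% were called higher and 27.7% lower, with PLX3397 3.23% and 6.66%, and with the combination 7.88% and 9.6%. Cebpb and Cebpd also rose with injury and were not called with either drug diet. Most astrocyte, endothelial and oligodendrocyte markers did the same, as did Vcan and 2 of the 3 neutrophil markers tested. The part of any cell type in this was not tested. The 5 red blood cell markers, 5 of 5 called lower with PLX3397 and with the combination, summed to 1507 to 4406 TPM in vehicle, 606 to 1072 TPM with PLX3397 and 725 to 951 TPM with the combination. Their part in the falls of the members was not tested.

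The members lie on chromosomes 2 (Spi1, 91082374 to 91115759, and Cebpb, 167688915 to 167690432), 7 (Cebpa, 35119293 to 35121928), 8 (Lyl1, 84701423 to 84704716, Maf, 115703253 to 115706894, and Irf8, 120736358 to 120756694), 11 (Ikzf1, 11684962 to 11772930) and 16 (Cebpd, 15887286 to 15889545, and Runx1, 92601466 to 92826074) of GRCm38.p6. The library protocol describes no strand marking, so reads from overlapping exons on opposite strands cannot be told apart. In GENCODE, 562 of 3746 exon bases of Cebpd overlap Spidr, 312 of 1504 of Cebpb overlap Tmem189, 440 of 8241 of Maf overlap Gm15655, 106 of 12025 of Runx1 overlap Gm26626, 51 of 2636 of Cebpa overlap Gm45091 and 4 of 1800 of Lyl1 overlap Nfix. Spi1, Ikzf1 and Irf8 overlap no other exon.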

How the data were processed

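Poly-A RNA of 24 mice was sequenced, 1 library per mouse. The authors mapped reads to mm10 (GRCm38) in CLC Genomics Workbench and deposited TPM, which divide by gene length and add up to 1000000 in each library. A filtered table with p-values and F values of the authors' own tests was not used. Without counts, depth is unknown and precision rests on the spread between mice.

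Groups followed the treatment labels. Log2(TPM + 1) of the 17267 genes whose mean reached 0.5 TPM was fitted over all 24 libraries in limma 3.58.1 (R 4.3.3) with a variance trend, with Benjamini-Hochberg adjustment over all these genes and a call below 0.05. Levels relative to 12 pan-myeloid genes were compared by exact two-sided permutation tests of the mice and, chosen after seeing the data, by limma over all genes tested. Scripts were tested on simulated data.

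The members and lists were chosen with earlier results of these data known. All members are named, as are list genes called with the 2 largest changes per direction for injury or the combination, fixed relatives, and the genes that complete a short count, except that some are not reported here. Likeness was taken by Pearson's r. The animal numbers shared by vehicle and PLX3397 mice (J01, J19 and J20) were checked as pairs, and since their deviations from group means had r of 0.17, -0.13 and -0.07, they do not pair the mice. Alternatives were a pseudocount of 0.1, no filter, a filter of 5 TPM, median-ratio rescaling, only the compared groups, each mouse left out, the rounded table, the animal numbers as block and the study's volcano-plot criteria.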

Additional observations from a re-analysis of the deposited data

Results flagged for a closer look

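In 7 of the 45 combinations of gene and group, 1 mouse stood apart from the rest of its group by Dixon's gap-to-range ratio. Chance gives about 1 in 20 for a single such test. All genes of a mouse share its library, so the 45 are not independent, and whether their count exceeds that rate cannot be judged. PLX3397 mouse J02 was high for Cebpa (42.9 TPM against 29.3 to 32.9, ratio 0.738), Ikzf1 (4.70 against 3.21 to 3.58, ratio 0.751) and Irf8 (18.7 against 10.6 to 12.5, ratio 0.768). Vehicle mouse J17B was low for Cebpa (46.1 TPM against 62.5 to 67.5, ratio 0.767), and Sham mouse J15 was low for Cebpa (11.2 against 13.3 to 13.7, ratio 0.836). Anakinra mouse J05 was high for Spi1 (36.6 TPM against 27.3 to 28.8, ratio 0.839). Mouse J09 of the combination was high for Cebpd (28.6 TPM against 21.5 to 22.3, ratio 0.891). Why these mice stood apart was not tested.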

How the results depend on the processing

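Across the alternatives, no called fold change of a member turned its direction. Of 55 called member fold changes, 3 lost their call in at least 1 alternative: Runx1 with PLX3397 versus vehicle, and Ikzf1 and Lyl1 with the combination versus Sham. When each mouse was left out in turn, the number of members called was 6 to 7 for PLX3397 versus vehicle, 6 to 8 for the combination versus Sham and 0 to 1 for Anakinra versus vehicle, the 1 being Cebpa without vehicle mouse J17B, and it did not move in the other comparisons. Under the study's volcano-plot criteria (unadjusted p under 0.05, mean ratio over 2, difference over 4 TPM), which low genes cannot pass, 4 members were called for PLX3397 versus vehicle, 4 for the combination versus Anakinra, 4 for PLX3397 versus Sham and 3 for the combination versus Sham. These are the comparisons whose count changed most in proportion to that of limma, and the other counts are not reported here. The share of all genes passing these criteria was not computed. Of the 36 exact tests relative to the pan-myeloid reference, 23 passed after adjustment over these tests, 15 with the microglial markers as reference, and 8 to 25 when a mouse was left out, 8 or 9 without any 1 vehicle mouse, where 4 against 4 mice cannot go below an exact p of 0.0286. By limma over all genes, chosen after seeing the data, 22 passed. After this subtraction nearly any gene passes in the comparisons with vehicle. In that limma fit, 98.4% of all genes tested were called higher with PLX3397 and 98.5% with the combination, each versus vehicle. From Sham to vehicle 98.8% were called lower, and 71.6% were called higher with the combination versus PLX3397. The counts of members are therefore no result about the members. Cebpb with Anakinra versus vehicle was not called and went from -0.01 to 0.00 with median-ratio rescaling (value 0.0041). Leaving out 1 mouse turned the sign of uncalled differences only. These ranged for Anakinra versus vehicle from -0.081 to 0.084 (Runx1), -0.11 to 0.043 (Cebpb) and -0.15 to 0.0051 (Ikzf1), for the combination versus PLX3397 from -0.021 to 0.051 (Maf) and -0.046 to 0.12 (Cebpb), for the combination versus Anakinra from -0.041 to 0.058 (Cebpd), for Maf versus Sham from -0.083 to 0.039 with PLX3397 and -0.066 to 0.056 with the combination, and for the interaction of Cebpb from -0.032 to 0.15. With the animal numbers as replicate block, over the 3 shared numbers only, Runx1 fell by 0.69 with PLX3397 (limma adjusted p = 0.0849), 6 of the 9 members were called, and 703 genes were called against 1707 without it. Vehicle and combination mice share 1 number only (J17), too few for a paired fit. With fewer mice in the paired fit of PLX3397, the cause of the lost call was not tested. TPM hold no depth, so counting error could not be set apart from the spread between mice.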
